A study of Canis lupus familiaris with 20 samples.

Results

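MAOA and MAOB encode the monoamine oxidases, and each is represented by 1 probe on the canine Agilent array used here. Both were chosen by the gene name in the array files and for their differences between the dogs, so they are 2 of the 10341 gene symbols and 2 of the 42034 probes on the array. Muscle was taken from 10 dogs aged 2 years, the muscle itself is not named in the labels, and each dog's total RNA was hybridised against the RNA of 1 normal individual. Of these dogs, 2 carry the label DMD escaper, 4 the label DMD affected and 4 the label normal. DMD is Duchenne muscular dystrophy, caused by loss of the muscle protein dystrophin, and escapers are dystrophic dogs whose disease is known to be mild. The labels give no mutation, breed, sex or treatment. Each dog was measured on 2 arrays, with its RNA in Cy5 on the one and in Cy3 on the other, and the dog is the replicate throughout. Each of 5 slides carried 2 dogs of 1 group, so the escaper group and its slide cannot be told apart.

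Monoamine oxidases sit on the outer membrane of mitochondria and remove the amino group from serotonin, noradrenaline, dopamine and dietary amines. Each turnover releases an aldehyde, ammonia and hydrogen peroxide, an oxidant that other enzymes then remove. MAOA prefers serotonin and noradrenaline, while MAOB prefers phenylethylamine, and inhibitors of both are drugs. The enzymes have been studied as sources of oxidants in dystrophic muscle of mice, and inhibitors of MAOB have been considered for muscular dystrophy. The genes lie tail to tail on the X chromosome in mammals.

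The last 30 bases of each 60-base probe are shown because they identify what was measured, and they show how little the probes have in common. Capitals mark AATAAA, the usual signal for cleavage and polyadenylation of a transcript.
MAOA probe: taaatgcactgatttaaagtttaagtctta
MAOB probe: actagcaagtaaaAATAAAgtggattgacc
The MAOA probe (A_11_P0000019695, designed on NM_001002969) lies at chromosome X, 37692616 to 37692673, on the plus strand. The MAOB probe (A_11_P0000019696, designed on NM_001002970) lies at chromosome X, 37713744 to 37713803, on the minus strand, 21128 bases from the start of the MAOA probe. These coordinates are those of the array files, whose genome build is not named in the headers. Both probes have a GC content of 35%, and the longest run of bases that they share is 7. AATAAA was searched as written and on the opposite strand. It starts at base 44 of the MAOB probe and is on neither strand of the MAOA probe. As written it is in 5.8% of the 42034 probes, and on either strand in 8.5%.

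MAOB was lower in the muscle of both dystrophic groups than in normal muscle. In bulk muscle fewer cells of a type and less RNA per cell cannot be told apart, here and below. The values are log2 ratios of the dog over the common reference, so a value of 0 means the level of the reference. In the escapers MAOB had −0.10 and −0.05. In the affected dogs it had 0.69, −0.31, 0.16 and −0.61. In the normal dogs it had 1.08, 0.97, 1.44 and 1.17. All normal dogs lay above all dystrophic dogs, and affected 1 was the dystrophic dog nearest to them, with a gap of 0.28 between the groups. The means were −0.08 ± 0.03 in escapers (SD, n = 2), −0.02 ± 0.57 in affected dogs (SD, n = 4) and 1.16 ± 0.20 in normal dogs (SD, n = 4). MAOB was not well above background on any escaper array, so only a bound on its fold is given there. On the measured values the difference of escaper minus normal was −1.24 on the log2 scale (SE 0.31), at least 2.36-fold lower. That of affected minus normal was −1.18 (SE 0.26), a 2.26-fold lower level. MAOB was well above background on only 3 of 8 affected arrays, so the size of this fold is uncertain. Escaper minus affected was −0.06 (SE 0.31), and the affected dogs lay on both sides of the escapers. Because the genes were chosen for these values, the differences are a description and no test is given.

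MAOA followed another order. In the escapers MAOA had 0.13 and 0.86. In the affected dogs it had 5.95e-06, −0.41, −0.31 and −0.47. In the normal dogs it had −0.05, −0.53, −0.45 and −0.53. The escapers were the highest of the 10 dogs, and affected and normal dogs covered much the same range. The means were 0.49 ± 0.52 in escapers (SD, n = 2), −0.30 ± 0.21 in affected dogs (SD, n = 4) and −0.39 ± 0.23 in normal dogs (SD, n = 4). The difference of escaper minus normal was 0.88 (SE 0.24), a 1.85-fold higher level, and that of escaper minus affected was 0.79 (SE 0.24), a 1.73-fold higher level. Affected minus normal was 0.09 (SE 0.20). The gap between escapers and the nearest dog was 0.18 towards normal dogs and 0.13 towards affected dogs, and escaper 1 is the dog that sets both. The size of the escaper difference rests on escaper 2. With escaper 2 left out it was 0.52 against normal and 0.43 against affected dogs, and with escaper 1 left out it was 1.25 and 1.16.

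**Figure D1:**
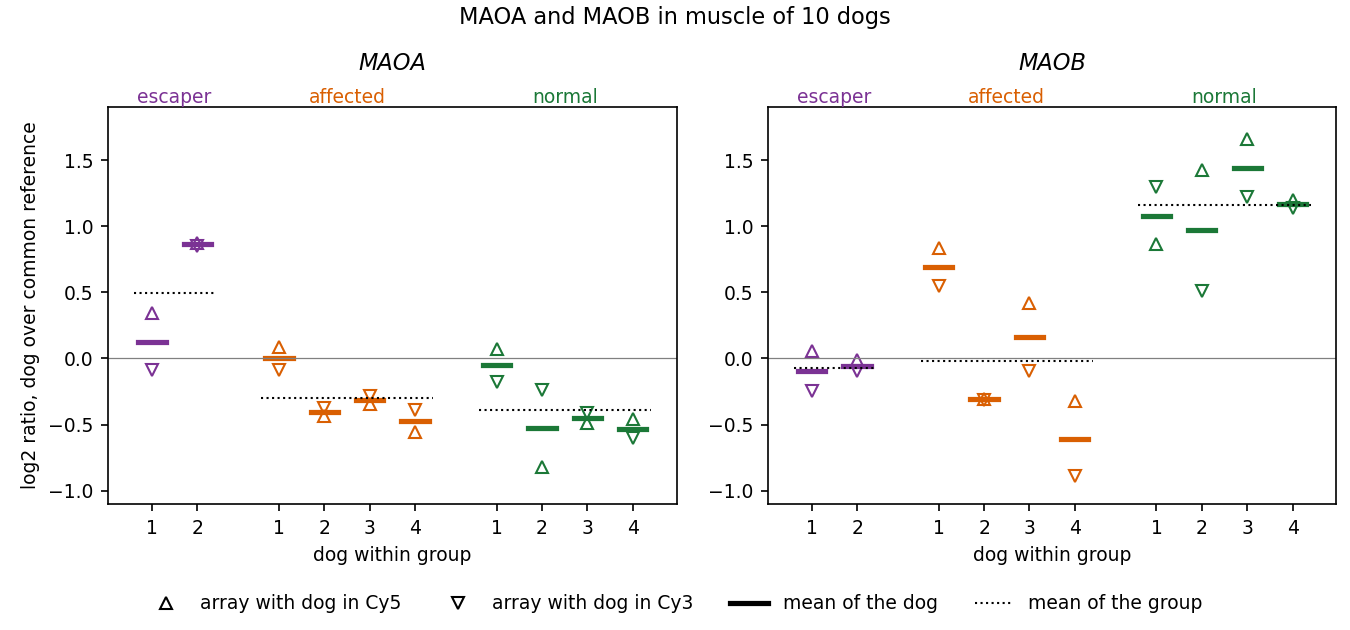
Log2 ratio of MAOA (left) and MAOB (right) over the common reference in each dog, with triangles for its 2 arrays, a thick bar for the dog's mean and a dotted line for the group mean. The 4 normal dogs lie from 0.97 to 1.44 for MAOB, above every dystrophic dog, and escaper 2 lies highest for MAOA at 0.86.

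Many probes on these arrays separate the groups in the same manner. Affected dogs lay wholly below normal dogs at 7.42% of the 16008 tested probes, escapers wholly below normal dogs at 15.7%, and both held at 5.04%. MAOB is among them. Escapers lay wholly above normal dogs at 14.5% of probes and wholly above affected dogs at 3.69%, and MAOA is among these. By size, 1.54% of probes had a difference of affected minus normal as low as that of MAOB, and 2.56% had one as low in escaper minus normal. A difference as high as that of MAOA was reached by 7.23% of probes in escaper minus normal and by 4.29% in escaper minus affected. The median difference over all tested probes was 0.02 for affected minus normal, −0.00119 for escaper minus normal and −0.00781 for escaper minus affected.

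The signals in the separate channels show which of these values were measured well. For the dogs' own RNA, the MAOA probe was well above background on all 20 arrays. The MAOB probe was well above background on 0 of 4 escaper arrays, on 3 of 8 affected arrays and on 8 of 8 normal arrays. The 3 affected arrays were both arrays of affected 1 and 1 array of affected 3. In log2 intensity after normalisation, the MAOB level was 7.83 and 7.69 in the escapers. It was 8.59, 7.72, 7.95 and 7.24 in the affected dogs. It was 9.06, 9.02, 9.51 and 8.97 in the normal dogs, the only group with MAOB well above background on every array. Since no escaper array measured MAOB well above background, only a bound on its fold can be given. On channel levels, 7.76 ± 0.10 in escapers (SD, n = 2) and 9.14 ± 0.25 in normal dogs (SD, n = 4), the bound is at least 2.60-fold lower in escapers. By the ratio to the reference it is at least 2.36-fold, so the bound depends on the scale. Each bound takes the measured escaper signal as an upper limit, and leaves out the spread between dogs and other processing. With median centring the difference of escaper minus normal was smaller, at −1.17 against −1.24. The affected dogs averaged 7.87 ± 0.56 (SD, n = 4), and no fold of escapers against them is given because only 3 of their 8 arrays measured MAOB well above background. Channel levels are open to dye bias, although each dog was measured with both dyes.

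The common reference gives a further value for MAOB in muscle labelled normal. Its MAOB level averaged 7.91 ± 0.20 over 20 arrays (SD over arrays of the same RNA), with a range of 7.61 to 8.40. It was well above background on 15 of 20 arrays, which were all 10 with the reference in Cy5 and 5 of 10 with it in Cy3. That level lies below all 4 normal dogs and within the range of the affected dogs. The reference RNA, although labelled normal, did not have the MAOB level of the normal dogs. Its MAOA level averaged 9.32 ± 0.14, with a range of 9.01 to 9.62, and was well above background on all 20 arrays. The MAOB level of the reference averaged 7.84 on escaper arrays, 7.89 on affected arrays and 7.97 on normal arrays. These averages differ by far less than the dogs' own channel levels.

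**Figure D2:**
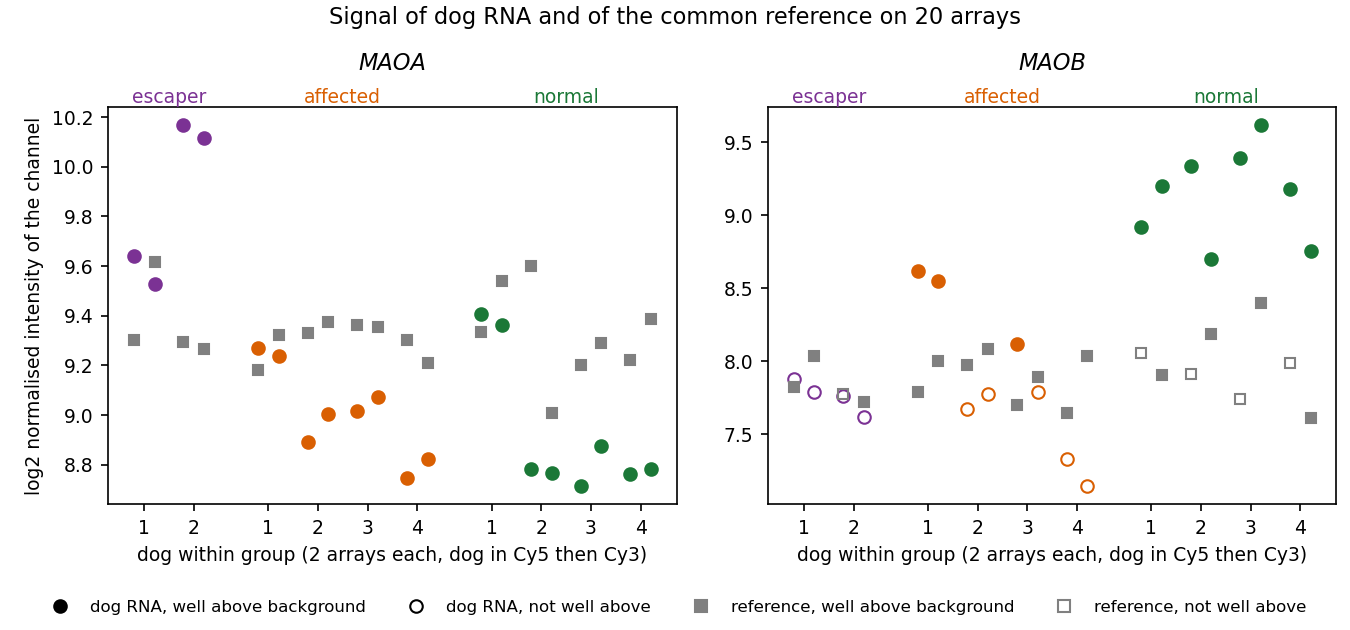
Log2 normalised intensity of the dog's RNA (circles) and of the common reference (squares) for MAOA (left) and MAOB (right) on each of 20 arrays. Filled symbols are well above background. For MAOB, 0 of 4 escaper arrays, 3 of 8 affected arrays and 8 of 8 normal arrays have a filled circle.

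The ratio of a dog differed between the 2 dyes. For MAOB the ratio with the dog in Cy5 was above that in Cy3 in every dog except normal 1, which had 0.87 and 1.29. The sign changed with the dye for MAOB in escaper 1 and affected 3, and for MAOA in escaper 1, affected 1 and normal 1. For MAOB the ratio with the dog in Cy5 and then in Cy3 was 0.06 and −0.25 in escaper 1, while escaper 2 had −0.01 and −0.10. Among affected dogs the widest spreads were those of affected 3, with 0.42 and −0.10, and of affected 4, with −0.32 and −0.89. Among normal dogs, normal 2 differed most, with 1.42 and 0.51. That last value, the lowest of the 8 normal arrays, lies below both arrays of affected 1, which had 0.83 and 0.55, so single arrays of the 2 groups overlap where dog means do not. For MAOA, escaper 2 had 0.87 and 0.85, the closest pair among the 10 dogs, whereas escaper 1 had 0.34 and −0.09. The Cy3 arrays of escaper 1 and affected 1 thus lay level, at −0.09 each, and escaper 1 lay above affected 1 only on its Cy5 array. The Cy3 values of the other affected dogs were lower, at −0.37, −0.28 and −0.39. The widest MAOA pair was that of normal 2, with −0.82 and −0.24.

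The size of the MAOB difference depends on how background was removed. On the processed signals of the scanner, whose log2 ratios are also the values of the authors' deposited table, MAOB had −0.75 and −0.36 in the escapers. It had 1.42, −1.74, 0.09 and −1.37 in the affected dogs and 2.51, 3.06, 3.26 and 2.64 in the normal dogs. The groups separate on this scale too. The difference was −3.42 for escaper minus normal and −3.26 for affected minus normal. The brighter MAOA probe moved less, with 1.23 for escaper minus normal and 0.22 for affected minus normal. With the background correction used here but no offset, the MAOB differences were −1.45 and −1.44. The direction of the MAOB difference from normal dogs was therefore shared by all these treatments, and its size was not.

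**Figure D3:**
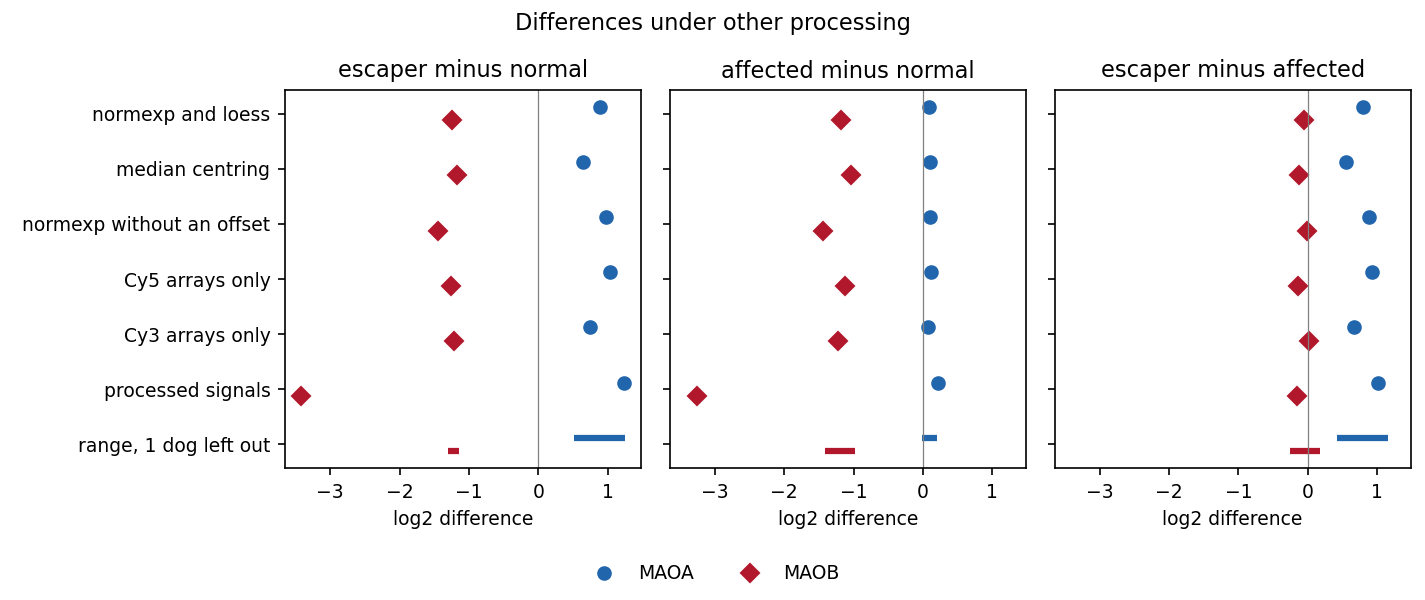
Log2 difference of MAOA (circles) and MAOB (diamonds) in each comparison under each processing, with bars for the range when 1 dog at a time is left out. The MAOB differences from normal dogs stay below 0 throughout, and reach −3.42 in escapers and −3.26 in affected dogs on processed signals.

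Across the 10 dogs the 2 genes did not move together. Pearson's r between MAOA and MAOB was −0.27 and Spearman's rho −0.31 over 10 dogs, which share the same reference. Without the 2 dogs farthest from the median of MAOA, which are the escapers, r was 0.10 over 8 dogs. Within groups, r of the deviations from group means was 0.43. Affected 1 is the dog in which both genes were highest among the affected, and normal 1 had the highest MAOA but not the highest MAOB among the normal dogs. On the deposited values r was −0.37 over 10 dogs and −0.16 without the escapers, so the sign over the remaining dogs depends on the processing.

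Other probes near the 2 genes show how local these values are. Within 250000 bases of either probe the array carries 10 probes, of which 5 were tested. A probe named only by the transcript tag DN378518 lies 2402 bases beyond the MAOA probe on the same strand, at chromosome X, 37695018 to 37695077, between the 2 genes' probes. It had 0.94 and 0.94 in the escapers, −0.68, 0.33, 0.36 and 0.08 in the affected dogs, and 0.08, −0.63, −0.01 and −0.55 in the normal dogs. Like MAOA it was highest in the escapers, but among affected dogs it was lowest in affected 1, where MAOA was highest. Its difference was 1.22 for escaper minus normal (SE 0.32), 0.92 for escaper minus affected (SE 0.32) and 0.30 for affected minus normal (SE 0.26). The Cy5 spot of normal 3 had an outlier flag and was left out, so the DN378518 value of that dog, −0.01, is its Cy3 array alone. The files give this probe no gene. It was well above background on all 20 arrays and shares no run of over 6 bases with either probe.

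The remaining tested probes of the region differed little. The unnamed probe on the far side of MAOA, 133342 bases from the MAOB probe (ENSCAFT00000022922), had differences of 0.12 for escaper minus normal and 0.19 for affected minus normal. The unnamed probe 97692 bases beyond the MAOA probe (A_11_P000001063) had 0.29 and 0.08. In a gene table of dog assembly UU_Cfam_GSD_1.0, MAOA and MAOB are neighbours and NDP is the next named gene that encodes a protein. NDP, which encodes the secreted protein norrin, was well above background on 3 arrays and was not tested.

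**Figure D4:**
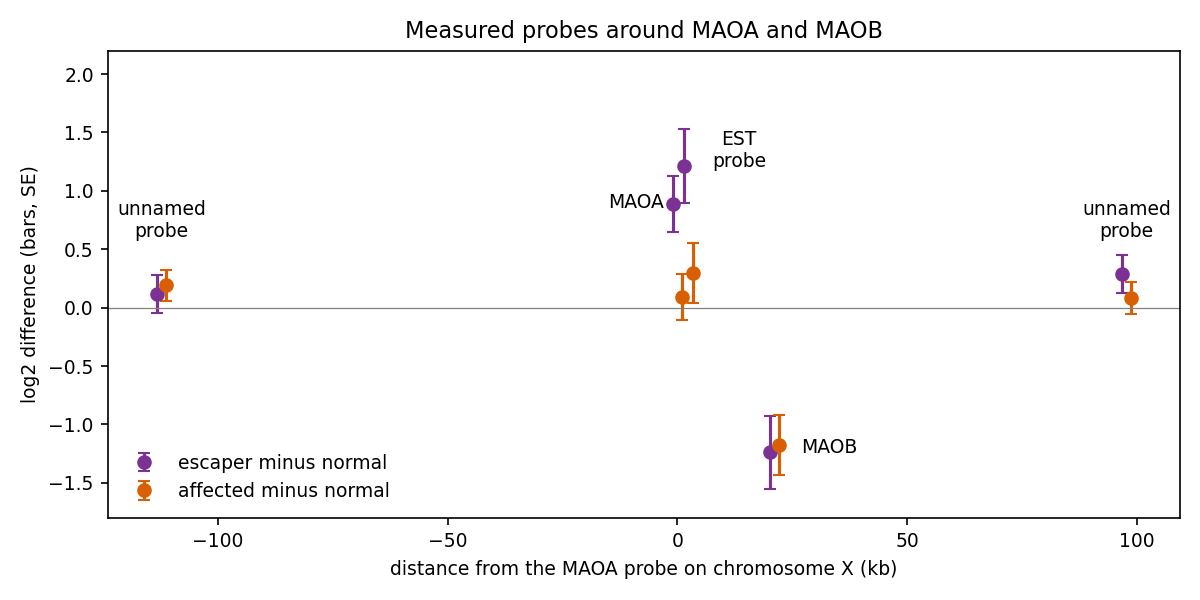
Log2 difference from normal dogs at the 5 tested probes around MAOA and MAOB, for escaper dogs and affected dogs, against distance from the MAOA probe in kb, with bars for the SE. The MAOA probe and its neighbouring tag probe lie above 0 in escapers at 0.88 and 1.22, and MAOB lies below 0 in both groups.

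The dogs differed widely within the dystrophic groups. The arrays had 30.5% to 60.2% of probes well above background, and between the dye-swapped arrays of each animal r was 0.627 to 0.938. The Cy5 array of affected 4 had the 60.2%, and the next highest array had 43.6%. Its median signal over background was 5.28, against 1.67 to 2.70 on the other arrays. The lowest r between dyes, 0.627, was also that of affected 4. Normal dogs were alike, with r of 0.78 to 0.86 between them, whereas affected dogs had r from −0.19 to 0.65 and the 2 escapers −0.01. Skeletal muscle fibre markers were present, with 10 of the 11 on the array well above background on all 20 arrays. Their mean log2 ratio over 10 tested markers was 0.66 and −2.11 in the escapers. It was −1.63, 0.44, 0.38 and 0.07 in the affected dogs and 0.86, 0.59, 0.48 and 0.61 in the normal dogs. Affected 1 and escaper 2 were thus far below the other 8 dogs, and both enter the values below. MAOB was higher in affected 1, at 0.69, than in any other dystrophic dog. Affected 1 was also the only dystrophic dog with MAOB well above background on both arrays. In escaper 1, whose fibre markers lay within the range of the normal dogs, MAOB was −0.10 and not well above background. The part of fibre content in the MAOB values was not tested.

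Only 3 of the 16008 probes passed limma's adjusted p of 0.05 in affected minus normal (0.0187%), and 0 passed in escaper minus normal (0%) or in escaper minus affected (0%). At an unadjusted p of 0.05 the shares were 12.4%, 18.4% and 5.22%. Against this background, 18 lists with 340 genes were described, of which 182 were tested, and 0 of the 182 passed in any of the 3 comparisons. These counts depend on which escapers are in the fit, and a fit with a lone escaper takes the spread of that group from the other groups. In affected minus normal 113 probes passed when these 2 groups were fitted alone, without either escaper. Over all 6163 tested genes the median difference was 0.00484 for escaper minus normal, 0.04 for affected minus normal and −0.03 for escaper minus affected. In these comparisons 3111, 3455 and 2841 of the 6163 genes were positive, and 3052, 2708 and 3322 were negative. The genes named below are given with their values and limma's adjusted p from the fit with all dogs, and none of them passed.

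Genes that handle amines and the aldehydes made from them were highest, on average, in escaper 2. The mean log2 ratio of the tested members was 0.04 and 0.46 in the escapers, −0.54 to 0.20 in the affected dogs and −0.09 to 0.09 in the normal dogs, so escaper 1 lay within the range of the normal dogs. Of 34 listed, 14 were tested, and the median was 0.26 for escaper minus normal, with 10 positive and 4 negative, and 0.02 for affected minus normal, with 9 positive and 5 negative. SULT1A1, which adds sulfate to phenols and catecholamines, had 0.97 and 1.65 in the escapers. It had 0.68, 0.35, 0.75 and 0.64 in the affected dogs and 0.68, 0.36, 0.52 and 0.24 in the normal dogs. Both escapers were above every other dog for SULT1A1, with a difference from normal of 0.86 (adjusted p = 0.189) and of affected minus normal of 0.16 (adjusted p = 0.729). HNMT, which inactivates histamine by methylation, had 0.86 and 2.03 in the escapers. It had −0.39, 0.51, −0.01 and 0.91 in the affected dogs and −0.11, 0.08, 0.38 and −0.15 in the normal dogs. The escaper values of HNMT lay above all normal dogs, with a difference of 1.40 (adjusted p = 0.189). ALDH3A2, a fatty aldehyde dehydrogenase, differed by 0.60 in escaper minus normal (adjusted p = 0.277).

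ALDH2, the mitochondrial dehydrogenase that oxidises aldehydes made by monoamine oxidases, varied among the dystrophic dogs. It had 0.41 and −1.42 in the escapers. It had −1.94, −0.49, 0.52 and 0.31 in the affected dogs and 0.45, 0.93, 0.62 and 0.32 in the normal dogs. Its probe was saturated on 1 of 20 arrays. The lowest values of ALDH2 belong to affected 1 and escaper 2, the dogs with the lowest fibre markers. Its differences were −1.09 for escaper minus normal (adjusted p = 0.399) and −0.98 for affected minus normal (adjusted p = 0.491). RNLS, renalase, a flavoprotein oxidase, differed by −0.70 in affected minus normal (adjusted p = 0.385). AOC3, the copper amine oxidase of vessel walls and fat, was well above background on at most 2 arrays and was not tested.

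Genes that remove hydrogen peroxide, or restore the thiols used for it, had values in both directions. Of 34 listed, 20 were tested, with a median of −0.14 for escaper minus normal and −0.07 for affected minus normal. NQO1, a quinone reductase, had −0.13 and −0.67 in the escapers and −0.37, −0.36, −0.46 and −0.23 in the affected dogs. It had 0.74, 0.02, 0.03 and 0.02 in the normal dogs. All dystrophic dogs lay below all normal dogs for NQO1, with differences of −0.60 (adjusted p = 0.239) and −0.56 (adjusted p = 0.321). Glutaredoxins reduce thiols with glutathione. GLRX2 was at −0.79 in escaper minus normal (adjusted p = 0.210), with 0.12 and −0.90 in the escapers and 7 of its 20 spots left out for an outlier flag. In affected minus normal GLRX5 was at −1.05 (adjusted p = 0.346) and GLRX at −1.22 (adjusted p = 0.350). TXN, thioredoxin, was at 1.14 in affected minus normal (adjusted p = 0.388), and GPX8, a peroxidase of the endoplasmic reticulum, at 2.14 in escaper minus normal (adjusted p = 0.228), with −0.64 and 1.23 in the escapers. PRDX6, a peroxiredoxin, differed by −0.36 in escaper minus normal (adjusted p = 0.296).

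Catalase (CAT), which breaks down hydrogen peroxide in peroxisomes, had −0.10 and −0.72 in the escapers. It had −2.12, 0.32, 0.07 and 0.24 in the affected dogs and −0.13, 0.11, 0.06 and −0.05 in the normal dogs. Affected 1 alone was low among the affected dogs, and the CAT differences were −0.41 for escaper minus normal (adjusted p = 0.737) and −0.37 for affected minus normal (adjusted p = 0.765). Glutathione peroxidase GPX1 had −0.56 and 0.72 in the escapers. It had −1.91, −0.89, −0.67 and −0.19 in the affected dogs and −0.42, −0.95, −0.84 and −0.70 in the normal dogs. The GPX1 differences were 0.81 (adjusted p = 0.362) and −0.19 (adjusted p = 0.856). SOD2, the mitochondrial superoxide dismutase, was well above background on all 20 arrays but, with flagged spots left out, had no value in at least 1 dog and was not tested, and PRDX3 was not on the array under that symbol.

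Other sources of oxidants had a median of 0.32 in escaper minus normal over 12 tested of 26 listed genes, against 0.13 in affected minus normal. Their mean log2 ratio was −0.24 and 0.47 in the escapers, −0.23 to −0.10 in the affected dogs and −0.38 to −0.26 in the normal dogs, so the high escaper values are those of escaper 2. CYBB, the catalytic subunit of the phagocyte NADPH oxidase, had −0.72 and 1.25 in the escapers. It differed by 1.49 in escaper minus normal (adjusted p = 0.205) and by 0.53 in affected minus normal (adjusted p = 0.613). Its partner subunit CYBA, at −0.73 and 1.15 in the escapers, differed by 1.26 in escaper minus normal (adjusted p = 0.239). Macrophages are a main source of CYBB, their markers were positive as well (described further on), and their part in these values was not tested. SHC1, an adaptor with a mitochondrial form that makes hydrogen peroxide, differed by 0.66 (adjusted p = 0.210) and by 0.38 (adjusted p = 0.446) in the same comparisons, with −0.23 and 0.69 in the escapers. QSOX1, a sulfhydryl oxidase, differed by 0.36 in escaper minus normal (adjusted p = 0.276). In affected minus normal XDH, xanthine dehydrogenase, differed by −0.58 (adjusted p = 0.382), NCF4, a cytosolic oxidase subunit, by 0.54 (adjusted p = 0.452), and DUOX1, a dual oxidase, by 0.29 (adjusted p = 0.580). NOX4, an NADPH oxidase that makes hydrogen peroxide, differed by 0.51 (adjusted p = 0.382) in escaper minus normal. In affected minus normal NOX4 differed by 0.00229 (adjusted p = 0.997). Its probe was well above background on only 5 arrays. NOX4 had −0.02 and 0.95 in the escapers and −0.29 to 0.08 in the normal dogs. Its escaper difference therefore rests on escaper 2.

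Among other proteins of the mitochondrial outer membrane, where monoamine oxidases sit, 18 of 22 tested genes were negative in escaper minus normal and 14 of 22 in affected minus normal. The medians were −0.39 and −0.09. The mean log2 ratio of the 22 genes was 0.18 and −0.68 in the escapers, −0.21 to 0.18 in the affected dogs and 0.07 to 0.27 in the normal dogs, so the low escaper values are those of escaper 2 and escaper 1 lay within the range of the normal dogs. TOMM7, a small subunit of the protein import complex, differed by −0.76 in escaper minus normal (adjusted p = 0.189), and TOMM34, which assists import, by −0.98 in affected minus normal (adjusted p = 0.213). VDAC1, the main anion channel of the membrane, had 0.75 and −1.98 in the escapers, so its difference of −0.94 (adjusted p = 0.411) rests on escaper 2. The VDAC1 probe was saturated on 10 of 20 arrays, which limits its differences. In affected minus normal VDAC1 differed by −0.09 (adjusted p = 0.950). TSPO, a cholesterol-binding protein, differed by 0.41 in escaper minus normal (adjusted p = 0.324) and by 0.29 in affected minus normal (adjusted p = 0.528). MAOB thus lay below the median of its membrane in both comparisons and MAOA above it.

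Genes of the respiratory chain, in the inner membrane, were negative throughout, 37 of 37 in both comparisons with normal dogs, with medians of −1.26 for escapers and −0.77 for affected dogs. Of these, 19 and 13 had an unadjusted p under 0.05 in limma. Over all 6163 tested genes, 577 and 437 were negative at that p. NDUFA5 of complex I differed by −1.57 in escaper minus normal (adjusted p = 0.189), and ATP5PF of ATP synthase by −1.16 in affected minus normal (adjusted p = 0.265). The mean log2 ratio of the 37 genes was 0.42 and −1.33 in the escapers. It was −0.96, 0.35, 0.05 and −0.08 in the affected dogs and 0.56, 0.54, 0.66 and 0.83 in the normal dogs. Again affected 1 and escaper 2 were lowest. How these values relate to those of MAOB was not tested.

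Known or proposed regulators of monoamine oxidase transcription had medians of 0.05 for escaper minus normal and 0.09 for affected minus normal over 8 tested genes, 4 positive and 4 negative in each. SP3, a factor that binds GC-rich sites, differed by 0.63 in escaper minus normal (adjusted p = 0.195). FOXO1, a forkhead factor reported to repress MAOA, differed by 0.98 in escaper minus normal (adjusted p = 0.382) and by 1.17 in affected minus normal (adjusted p = 0.373). By dog FOXO1 had −1.58 and −0.37 in the escapers and 0.69, −0.97, −1.21 and −1.62 in the affected dogs. The normal dogs had −2.35 to −1.54, so escaper 1 and affected 4 lay within their range, and affected 1 was the highest dog. KLF11 was not on the array under that symbol. Of listed genes near them on the X chromosome of mammals, 8 were tested, with medians of −0.14 and −0.09. TIMP1, an inhibitor of matrix metalloproteinases, was the extreme member, at 2.14 in escaper minus normal (adjusted p = 0.213) and 1.31 in affected minus normal (adjusted p = 0.422). TIMP1 had −2.81 and 0.52 in the escapers, −2.48 to −0.95 in the affected dogs and −3.48 to −2.95 in the normal dogs. Its escaper difference therefore rests largely on escaper 2, and 4 of its spots were left out for an outlier flag. Dog sex could not be read from the array, since none of the 9 listed sex-linked genes has a named probe.

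**Figure D5:**
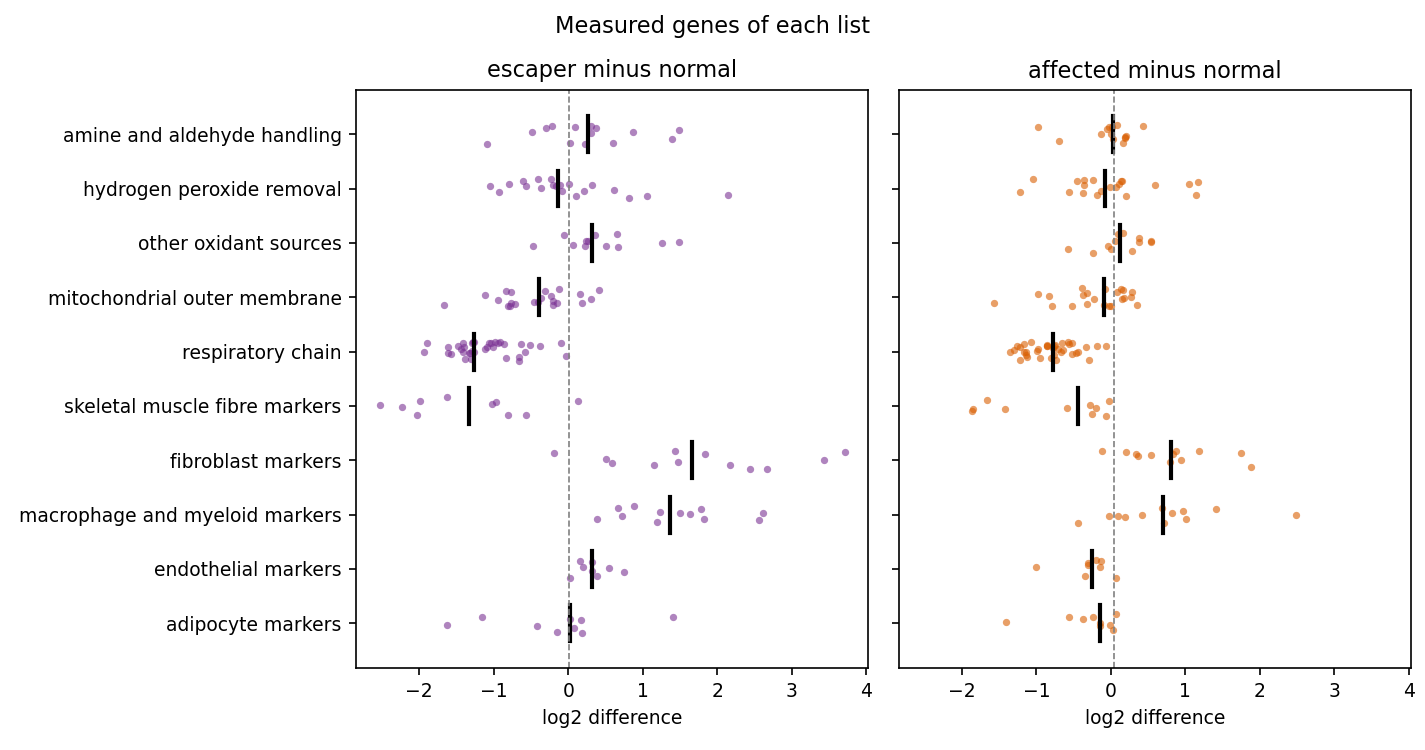
Log2 difference of each tested gene in 10 of the lists, for escaper minus normal (left) and affected minus normal (right), with black bars for list medians and a dashed line for the median of all 6163 tested genes. Respiratory chain genes lie below 0 in both panels, with medians of −1.26 and −0.77, and macrophage and myeloid markers lie mostly above it, with medians of 1.36 and 0.70.

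Markers of the cell types in muscle are given because they can move bulk values. Muscle fibre markers had a median of −1.33 over 10 genes in escaper minus normal and −0.44 in affected minus normal. PYGM, muscle glycogen phosphorylase, differed by −2.53 (adjusted p = 0.196) and −1.85 (adjusted p = 0.311). Fibroblast markers, of which 11 of 12 were positive in each, had medians of 1.66 and 0.81, with collagen chain COL1A2 at 3.43 (adjusted p = 0.201) and 1.74 (adjusted p = 0.453). Macrophage and myeloid markers were positive in 12 of 12 and 10 of 12, with medians of 1.36 and 0.70, and LGALS3, galectin-3, was at 2.55 (adjusted p = 0.189) and 2.48 (adjusted p = 0.125). The mean over the 12 macrophage markers was −1.16 and 1.06 in the escapers, −1.16 to −0.04 in the affected dogs and −1.65 to −1.29 in the normal dogs. Over the 12 fibroblast markers it was −0.16 and 2.24 in the escapers, −1.06 to 1.19 in the affected dogs and −0.99 to −0.53 in the normal dogs. Escaper 2, the dog with the most MAOA, was the highest dog in both.

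Markers of vessels are given by dog as well, since the escapers differed in them. Endothelial markers were positive in 8 of 8 in escaper minus normal and in 1 of 8 in affected minus normal, with medians of 0.32 and −0.25. In escaper minus affected 8 of 8 were positive, with a median of 0.57, and 0 passed. The tight junction protein CLDN5 was at 0.74 in escaper minus normal (adjusted p = 0.228) and the receptor KDR at −1.001 in affected minus normal (adjusted p = 0.213). Their mean was −0.22 and 0.92 in the escapers, −0.44 to −0.09 in the affected dogs and −0.17 to 0.10 in the normal dogs. By this mean escaper 1 lay within the range of the affected dogs, and escaper 2 was the highest dog. Single markers differed from the mean. KDR had 0.84 and 1.71 in the escapers and at most 0.74 in the affected dogs. Both escapers lay above all affected dogs at 3 of the 8 markers, and at 195 of all 6163 tested genes. Smooth muscle and pericyte markers were positive in 6 of 6 and 2 of 6, with medians of 0.24 and −0.13. TAGLN, transgelin, was at 0.59 in escaper minus normal (adjusted p = 0.263), and ACTG2, an actin of smooth muscle, at −1.26 in affected minus normal (adjusted p = 0.176). The mean over the 6 smooth muscle markers was 0.23 and 0.68 in the escapers, −0.17 to −9.86e-05 in the affected dogs and 0.05 to 0.26 in the normal dogs. The part of these cells in the MAOA values was not tested.

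Adipocyte markers had medians of 0.02 and −0.15 over 9 genes. In escaper minus normal 5 were positive and 4 negative, and in affected minus normal 2 and 7. FABP4, a fatty acid carrier, was the highest member in escaper minus normal, at 1.41 (adjusted p = 0.201), where the lowest was at −1.63. CD36, a fatty acid transporter, was at −0.38 in affected minus normal (adjusted p = 0.380). The mean over the 9 markers was 0.32 and −0.10 in the escapers, −0.47 to 0.20 in the affected dogs and 0.18 to 0.39 in the normal dogs. Other cells were hardly represented among tested probes. The mast cell protease CPA3 was at 0.76 (adjusted p = 0.266) and 0.37 (adjusted p = 0.599), but was well above background on only 4 of 20 arrays. It had 0.17 and 1.39 in the escapers and −0.08 to 0.21 in the normal dogs. The platelet integrin ITGA2B was at −0.07 (adjusted p = 0.800) and 0.07 (adjusted p = 0.809). NKG7, of cytotoxic lymphocytes, was at −1.04 (adjusted p = 0.451) and −1.46 (adjusted p = 0.369), with its probe saturated on 6 of 20 arrays, while the T cell markers CD3D, CD3E and CD3G were well above background on 4, 3 and 4 arrays and were not tested. PMP22, a myelin protein also made by other cells, was at 1.58 (adjusted p = 0.380) and 1.40 (adjusted p = 0.482). PMP22 had −0.77 and 1.43 in the escapers, 2.54, −1.24, −0.28 and −0.42 in the affected dogs and −1.67 to −0.64 in the normal dogs. Its differences therefore rest largely on escaper 2 and affected 1.

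The genes whose pattern over the 10 dogs was most like that of MAOB or MAOA were taken from the other 6162 tested genes by Pearson's r, as a description of dogs that share a reference. For MAOB the highest were APH1A at 0.98, TMEM130 at 0.94, MED29 at 0.93, TRMT61B at 0.90 and ITFG3 at 0.89. APH1A, a subunit of gamma-secretase, had 0.02 and 0.07 in the escapers, 0.20, 0.06, 0.04 and −0.05 in the affected dogs, and 0.29, 0.31, 0.39 and 0.29 in the normal dogs. Its order of dogs was close to that of MAOB over a much narrower range. Within groups its r with MAOB was 0.89, and without affected 4 and normal 3, the dogs farthest from the MAOB median, it was 0.96. Among the dystrophic dogs MAOB was well above background on both arrays in affected 1 alone. The MAOB order of the other dystrophic dogs rests largely on signals near background, which limits every r with MAOB given here. The lowest genes by r were TCAF1 at −0.95, ACTC1 at −0.94 and SSX2IP at −0.93.

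ACTC1, the actin of the heart and of immature skeletal muscle, had the widest range among these genes. It had −0.68 and 1.61 in the escapers, −3.19, 0.17, −0.52 and 0.81 in the affected dogs, and −3.70, −3.72, −4.07 and −3.87 in the normal dogs. Affected 1 lay nearest to the normal dogs for ACTC1 and was the dystrophic dog with the most MAOB. Affected 4 had the most ACTC1 among the affected and the lowest MAOB value, with 0 arrays well above background for MAOB. The dye-swapped arrays of affected 4 were also the least alike of any dog. Within groups r between ACTC1 and MAOB was −0.81, and without affected 4 and normal 3 it was −0.93.

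For MAOA the highest were CYP27A1 at 0.96, SULT1A1 at 0.94, KLHL36 at 0.94, C31H21orf91 at 0.92 and RPS16 at 0.92. CYP27A1, a mitochondrial sterol hydroxylase, had 0.07 and 1.23 in the escapers, 0.24, −0.37, −0.33 and −0.20 in the affected dogs, and −0.18, −0.45, −0.36 and −0.60 in the normal dogs. Without both escapers r with MAOA was 0.83 for CYP27A1, 0.68 for SULT1A1, 0.64 for KLHL36, 0.51 for C31H21orf91 and 0.73 for RPS16. The lowest were TMA16 at −0.92, TEFM, a transcription factor of mitochondria, at −0.92 and ZNF330 at −0.91.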

How the data were processed

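Muscle RNA of 10 dogs was measured on 20 arrays of 2 colours, which the authors read with software of the scanner's maker (Agilent Feature Extraction, version 9.5.3.1, per the file headers). In the deposited files are mean and background intensity per spot and processed intensity, with flags (0 or 1) for outliers, saturation and signal well above background, per the file headers. The authors also deposited a table of log2 ratios, whose columns matched the dog's processed signal over the reference's (r = 1) with dye swaps already turned. Its column medians, in order of dog number, were 0.04 and −0.06 (escapers, Cy5), 0.24 and 0.13 (escapers, Cy3), −0.07, 0.12, 0.000883 and −0.04 (affected dogs, Cy5), 0.09, 0.25, 0.21 and 0.19 (affected dogs, Cy3), 0.01, −0.16, −0.08 and −0.09 (normal dogs, Cy5), 0.21, 0.18, 0.16 and 0.12 (normal dogs, Cy3), and why columns were left uncentred is not given in the sources used here.

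From mean and background signals, normexp (offset 50) and loess within array were applied in limma 3.58.1 (R 4.3.3). Of 43451 spots, 1417 controls and spots with an outlier flag were left out. Both arrays of a dog were averaged. Probes well above background on both arrays of at least 2 dogs were kept (16130), and 16008 with a value in every dog entered 1 limma fit of 3 groups, with Benjamini-Hochberg adjustment and a threshold of 0.05, two-sided. The fit was tested on simulated data. The number of arrays limits the precision. Symbols came from the files and a RefSeq gene table: 12235 probes were named, 777 of them by a symbol that the table does not hold, and 29799 were unnamed. A gene is represented by its tested probe with the highest mean intensity.

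MAOA, MAOB and the lists were chosen with earlier results of these data known. Named list genes are the 4 of smallest p in affected or escaper minus normal for amine handling, peroxide removal and other oxidant sources, 1 for other lists, and 14 fixed genes. A named gene of the amine list is not reported here. For each of MAOA and MAOB the 5 highest and 3 lowest genes by r were named. ACTC1 and APH1A are among them. Probes within 250000 bases and the fit without an offset were added after seeing the data.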

Additional observations from a re-analysis of the deposited data

Results flagged for a closer look

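MAOA in normal 1 stood apart from the other normal dogs. Its log2 ratio was −0.0503, and the next highest normal dog was at −0.45, a gap that takes up 0.832 of the range of the 4 normal dogs. By chance about 1 in 20 such groups would show a gap of this kind, and 4 groups of 4 dogs were examined for MAOA and MAOB. With normal 1 left out, affected minus normal was 0.20 for MAOA.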

How the results depend on the processing

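The MAOB differences from normal dogs kept their direction under every setting tried, and those of MAOA in escapers did too. On processed signals, and equally on the deposited table, MAOB was −3.42 for escaper minus normal and −3.26 for affected minus normal, and MAOA 1.23 for escaper minus normal. MAOB for escaper minus affected changed sign on Cy3 arrays alone, to 0.0146. With 1 dog left out, MAOA ranged from 0.52 to 1.25 for escaper minus normal, from −0.00783 (without affected 1) to 0.20 for affected minus normal, and from 0.43 to 1.16 for escaper minus affected. MAOB ranged from −1.30 to −1.15, from −1.42 to −0.98, and from −0.26 to 0.18 (without affected 1) in these comparisons. The number of probes past the threshold was unstable. For affected minus normal it was 3, against 31 on processed signals or the deposited table (11 higher, 20 lower), 7 on Cy5 arrays, 1 on Cy3 arrays, 114 with slide as a random block, 113 with the 2 groups alone and 0 to 113 with 1 dog left out. For escaper minus normal it was 0, against 4 on processed signals or the deposited table, 522 with the slide block, 1 with no filter on dim probes and 0 to 3920 with 1 dog left out. For escaper minus affected it was 0, against 0 to 1755. The highest counts, 3920 and 1755, came without escaper 1, when the spread of the lone escaper is taken from the other groups, and without escaper 2 they were 1 and 2. Without affected 1 they were 22 for affected minus normal and 9 for escaper minus normal. The slide block estimated a correlation of −0.27 within slides, and a negative value narrows the errors of group means. Of the 182 listed genes, 3 and 7 passed with that block in affected and escaper minus normal, and up to 96 passed without escaper 1. No paired analysis between groups was possible because each dog belongs to 1 group and each slide carried dogs of 1 group. Beside these changes, MAOB in escapers and in 5 of 8 affected arrays lay near background, which limits the size of its difference.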
